A study of Mus musculus with 71 samples.

Results

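Of the 25697 probes read in this series, 2 stood far lower in cerebellum of old wild-type mice given saline than on every other array of the same experiment: ILMN_2597332, a probe of 1700123O20Rik, and ILMN_3128535, a probe of Samd4. Both were chosen by their measured intensities in the injection experiment, low on the 3 old WT saline arrays and near the young level elsewhere, so their levels there are given as a description, without a test. The diet experiment took no part in the choice, and tests are given for it. The series holds 71 Illumina MouseRef-8 v2 bead arrays, each read in 1 colour, of cerebellum RNA from male C57BL/6 mice. The mice were Csbm/m (Csb below), which carry a mutant CSB gene on both chromosomes, or wild type (WT). The CSB protein acts in transcription-coupled DNA repair, and people who lack it have Cockayne syndrome.

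In the injection experiment (29 arrays) mice of 18 months (old) or 4 months (young) received nicotinamide riboside (NR), a vitamin precursor of NAD+, at 500 mg per kg per day, or saline, for 1 week. Old mice gave 4 Csb arrays after NR and 3 after saline, and 5 WT arrays after NR and 3 after saline. Young mice gave 3 Csb arrays after NR and 3 after saline, and 4 WT arrays after NR and 4 after saline. In the diet experiment (42 arrays) mice ate 1 of 4 diets for 8 months from 4 months of age and were 1 year old at collection. The Csb groups held 7 arrays on a high-fat diet (HFD, 60% of calories from fat), 6 under 40% caloric restriction (CR), 6 with resveratrol (Resv, 100 mg per kg of chow) and 6 on the standard diet (SD). The WT groups held 4 arrays on HFD, 4 under CR, 5 on Resv and 4 on SD. The labels number the replicates without tying each to its own mouse, so a p-value here speaks only of how far these arrays scatter, which may be partly technical.

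Samd4 encodes a mammalian homologue of the Drosophila protein Smaug, which binds hairpins in messenger RNAs through its SAM domain and represses their translation or marks them for decay. In neurons Smaug proteins gather in cytoplasmic granules with silenced messenger RNAs. 1700123O20Rik is a protein-coding gene known by its RIKEN clone name. RefSeq places both genes on chromosome 14, which also carries Ercc6, the gene of CSB. Along the chromosome Ercc6 comes first, then Samd4, then 1700123O20Rik. No probe of the 25697 was annotated to Ercc6, so the genotype labels were not checked on the targeted gene itself. At several probes near Ercc6, given below, the arrays labelled old WT saline stood at the Csb level, and at others there they did not. The genotype and strain background of these mice were not checked beyond the labels, and old WT saline names them here by label alone.

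The start regions of both genes are shown because the probes moved together in 1 group of mice, and because they let the genes be placed. Each run covers 250 bases before the RefSeq start and 50 after it, on the plus strand of build GRCm38.p6. Capitals mark matches on either strand to the TATA box, the CCAAT box, the GC box or the E-box, whose letters follow below. RefSeq gives 1 start region for 1700123O20Rik, at chr14:54685921-54686220, and 2 for Samd4, at chr14:46882715-46883014 and chr14:47068727-47069026.
1700123O20Rik: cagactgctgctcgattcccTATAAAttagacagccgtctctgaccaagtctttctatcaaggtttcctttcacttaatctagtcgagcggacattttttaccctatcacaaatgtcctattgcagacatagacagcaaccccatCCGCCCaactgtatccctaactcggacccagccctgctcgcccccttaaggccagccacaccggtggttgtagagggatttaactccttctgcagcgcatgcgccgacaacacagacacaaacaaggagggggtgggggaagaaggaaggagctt
Samd4, first start: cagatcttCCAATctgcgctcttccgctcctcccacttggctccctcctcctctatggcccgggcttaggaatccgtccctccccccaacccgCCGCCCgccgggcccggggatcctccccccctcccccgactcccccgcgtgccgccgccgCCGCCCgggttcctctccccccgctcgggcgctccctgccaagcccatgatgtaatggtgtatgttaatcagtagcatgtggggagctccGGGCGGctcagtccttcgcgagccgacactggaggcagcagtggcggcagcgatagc
Samd4, second start: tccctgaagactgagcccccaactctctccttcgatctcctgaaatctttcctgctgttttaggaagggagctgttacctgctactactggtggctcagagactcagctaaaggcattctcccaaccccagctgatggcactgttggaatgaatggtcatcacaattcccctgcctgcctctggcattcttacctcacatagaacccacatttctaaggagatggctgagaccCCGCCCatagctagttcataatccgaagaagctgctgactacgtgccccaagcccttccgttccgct

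The first Samd4 region is 69.3% G or C, with 27 CG pairs, 3 matches to the GC box (GGGCGG, held by 35.7% of the 32851 RefSeq start regions) and 1 to the CCAAT box (CCAAT, held by 37.4%). The second Samd4 region is 52% G or C, with 6 CG pairs and 1 GC box match. That of 1700123O20Rik is 51.3% G or C, with 11 CG pairs, 1 GC box match and 1 match to the TATA box (TATAAA, held by 13.6% of the regions). The TATA box match lies near the upstream end of the region, far from the start, and its use was not tested. The median of all regions is 52.7% G or C. The E-box letters CACGTG, held by 7.15% of the regions, occur in none of the 3. All 3 regions share the GC box letters and no other motif of the 4 searched. The probe sequences themselves were not used here, so where in the transcripts the probes bind is not given.

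Between 46.3% and 52.1% of the probes were detected per injection array and between 48.6% and 58% per diet array, at a detection p under 0.01 against the array's negative controls. The 3 old WT saline arrays lay inside the ranges of the other 26 injection arrays in probes detected (48.1% to 49.8%), in background (57.3 to 62.2, against 54.7 to 70.3) and in their median correlation within the group (0.964 to 0.978, against 0.963 to 0.99). Of 31 marker genes in 10 lists of cerebellar, glial, vascular, choroid plexus, ependymal, meningeal and blood cells, 26 had a probe. Cbln1 and Pcp2, which mark granule and Purkinje cells of the cerebellum, averaged 14.02 and 13.11 (log2) on the old WT saline arrays. Calb1, another Purkinje marker, was detected on no array.

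Probe ILMN_2597332 of 1700123O20Rik was at background in old WT saline mice and detected on all other injection arrays. Values of 1700123O20Rik are of that probe unless another is named; a second probe of the gene, which was detected in old WT saline mice, is described further on. Its deposited intensity was 60, 69.7 and 52.2 on the 3 old WT saline arrays, with detection p-values of 0.347, 0.271 and 0.961, so none of them detected it with that probe. On the other 26 injection arrays it lay between 224.5 and 495.7 with a median of 333.15, and all 26 detected it. The lowest other array was thus more than 3 times the highest old WT saline array, and the groups did not overlap. Within each array 1700123O20Rik was brighter than 1.11% to 29.2% of all probes in old WT saline mice and than 67.8% to 76.8% in the others.

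After normalization 1700123O20Rik stood at 4.58 ± 0.14 (log2, SD, n = 3) in old WT saline mice. The nearest groups in age, genotype or treatment were level with each other and far above it. Old Csb saline mice had 8.27, 8.25 and 7.99, at 8.17 ± 0.16 (SD, n = 3). Old WT NR mice had 8.12, 7.80, 7.91, 8.31 and 8.39, at 8.10 ± 0.25 (SD, n = 5). Young WT saline mice had 7.85, 8.00, 7.98 and 8.74, at 8.14 ± 0.40 (SD, n = 4). In order of level the 7 other groups ran from old Csb NR (8.20 ± 0.15, n = 4) to young Csb saline (7.99 ± 0.26, n = 3), and each differed from the next by at most 0.05, less than the SD of either. The next step down, to old WT saline, has only a lower bound, since that level was not above background.

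Since no old WT saline array detected ILMN_2597332, folds against them are lower bounds, taken from the lowest level among the detected probes of each array. Old Csb saline mice exceeded old WT saline mice at least 5.08-fold, and old WT NR mice exceeded them at least 4.85-fold. Old WT saline mice were at least 4.98-fold lower than young WT saline mice. In the comparisons that leave out old WT saline mice the fitted log2 differences were small. Csb minus WT was -0.16 (SE 0.18) in young saline, 0.10 (SE 0.16) in old NR and 0.05 (SE 0.18) in young NR mice. NR minus saline was 0.03 (SE 0.18) in old Csb, -0.12 (SE 0.17) in young WT and 0.08 (SE 0.19) in young Csb mice. Old minus young was 0.19 (SE 0.19) in Csb saline, 0.09 (SE 0.16) in WT NR and 0.13 (SE 0.18) in Csb NR mice.

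Samd4 was detected on all 29 injection arrays but was dim in old WT saline mice. Its deposited intensity was 142.5, 157.1 and 153 there, against 413.1 to 1042.8 with a median of 672.45 on the other 26 arrays, and the groups did not overlap. Its log2 level was 6.91, 6.46 and 6.60 in old WT saline mice, at 6.66 ± 0.23 (SD, n = 3). Old Csb saline mice had 9.12, 9.08 and 8.73 (8.98 ± 0.22, SD, n = 3), which is 5.00-fold higher. Old WT NR mice had 9.09, 9.19, 8.92, 8.90 and 9.0 (9.02 ± 0.12, SD, n = 5), which is 5.14-fold higher. Young WT saline mice had 9.64, 9.63, 9.58 and 9.61 (9.62 ± 0.03, SD, n = 4), and old WT saline mice stood 7.78-fold below them. Samd4 was therefore low but measurable in old WT saline mice, unlike ILMN_2597332.

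Apart from old WT saline mice the Samd4 levels fell into 2 tiers by age. The 3 other old groups stood at 9.10 ± 0.36 (Csb NR, n = 4), 9.02 ± 0.12 (WT NR, n = 5) and 8.98 ± 0.22 (Csb saline, n = 3). The 4 young groups stood at 9.62 ± 0.03 (WT saline), 9.57 ± 0.18 (Csb NR), 9.53 ± 0.19 (Csb saline) and 9.53 ± 0.40 (WT NR). The step between the tiers, 0.43 from young WT NR to old Csb NR, was slightly larger than the larger SD of those groups, and their arrays overlapped. Steps within a tier were at most 0.08. The fitted old minus young difference was -0.55 (SE 0.20) in Csb saline, -0.51 (SE 0.16) in WT NR and -0.47 (SE 0.18) in Csb NR mice, against -2.96 (SE 0.18) in WT saline mice. Csb minus WT was -0.09 (SE 0.18) in young saline, 0.08 (SE 0.16) in old NR and 0.05 (SE 0.18) in young NR mice. NR minus saline was 0.12 (SE 0.18) in old Csb, -0.09 (SE 0.17) in young WT and 0.04 (SE 0.20) in young Csb mice.

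**Figure D1:**
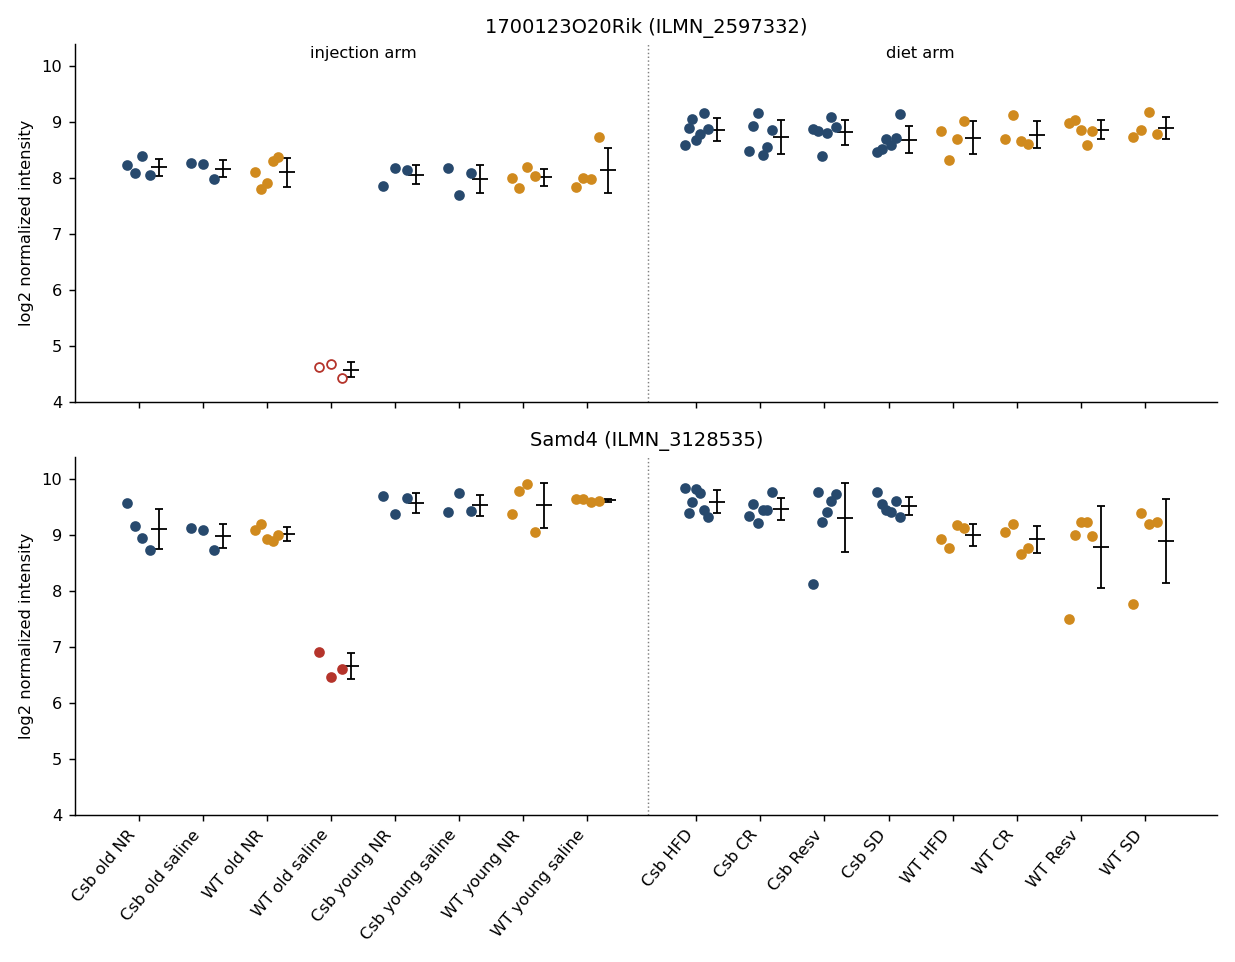
Log2 normalized intensity of 1700123O20Rik (above) and Samd4 (below) on every array, by group, with the injection experiment left of the dotted line and the diet experiment right of it. Points are arrays (open where not detected), bars are mean ± SD, and each experiment was normalized alone; the 3 old WT saline arrays stand at 4.42 to 4.69 and at 6.46 to 6.91, below all others.

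Ranked by the distance between the highest old WT saline array and the lowest of the other 26, the 2 probes came first and second among 13948 probes kept. The members were chosen for this pattern on these same arrays, so their high places follow from the choice. The ranking and its values in other groups are given as a description. The measured distance was 3.01 (log2) for 1700123O20Rik and 1.82 for Samd4. For 1700123O20Rik, not detected in old WT saline mice, it is at least 1.80 when their values are raised to the lowest detected level of each array, so the order within the pair is not settled. Just outside the pair stood Ang, the gene of the ribonuclease angiogenin, at 0.79, also undetected there and at least 0.16 by the same rule. Ogfod3, which encodes an oxygenase-domain protein, and Tmem260, which encodes a transmembrane protein, followed at 0.76 and 0.64. In all 16 probes (0.115%) stood lower in old WT saline mice than on all 26 others, and 3 stood higher. More probes parted old Csb saline mice from all other arrays, 78 lower and 89 higher, but by smaller distances. For each of the 7 other groups the same ranking gave a largest distance downward of 0.31 or less. Ang and 1700123O20Rik were also the 2 probes undetected on all 3 old WT saline arrays and detected on the other 26. No probe had that pattern in any of the 7 other groups.

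Other probes of the same genes did not follow. ILMN_2999447, also annotated to 1700123O20Rik, had intensities of 917.2, 1766.9 and 1479.2 on the old WT saline arrays, against 1073.2 to 2295.8 on the other 26. Its log2 level was 10.26 ± 0.18 (SD, n = 3) in old WT saline mice and 10.49 ± 0.13 (SD, n = 26) on the others, with overlapping arrays, although 2 of the 3 old WT saline arrays (10.10 and 10.25) were at or below the lowest of the 26 (10.25). The 2 probes of 1700123O20Rik thus disagreed in old WT saline mice by far more than the spread of either. The other Samd4 probes, ILMN_2735995 and ILMN_3052081, were detected on none of the 71 arrays. ILMN_2735995 lay between 66.1 and 71.5 in old WT saline mice and between 60.1 and 86.2 on the other 26 arrays, so the file gives no second reading of Samd4. Whether the transcript or the binding of 1 probe differs in old WT saline mice was not tested.

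**Figure D2:**
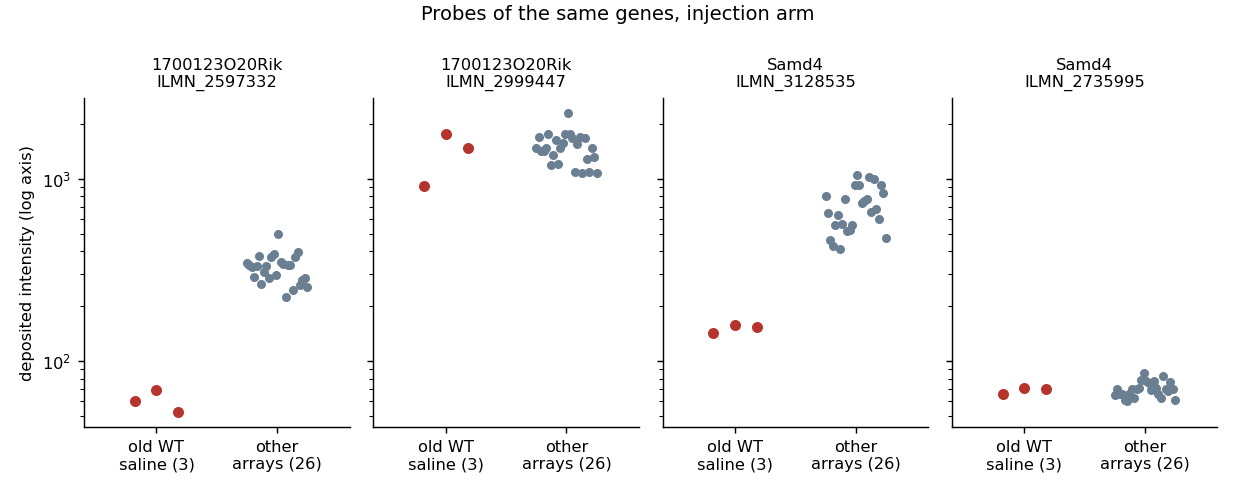
Deposited intensity (log axis) of 2 probes of 1700123O20Rik and 2 of Samd4 on the 3 old WT saline arrays (left in each panel) and the other 26 injection arrays (right). ILMN_2597332 and ILMN_3128535 separate the groups, ILMN_2999447 overlaps between them, and ILMN_2735995 is at background throughout.

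The probes most like the pair over the 29 injection arrays were sought by Pearson's r. For 1700123O20Rik they were Ogfod3 (r = 0.91), Samd4 (0.90), Apex1 (0.85), Psmb5 (0.84) and Ang (0.83). For Samd4 they were 1700123O20Rik (0.90), Ogfod3 (0.84), Psmb5 (0.84), Tmem260 (0.80) and Parp2 (0.80). Apex1 encodes the main endonuclease of base excision repair, Parp2 a DNA damage sensor that consumes NAD+, and Psmb5 a catalytic subunit of the proteasome. All but Ogfod3, on chromosome 11, lie on chromosome 14. The likeness rests on the 3 old WT saline arrays. Over the other 26 arrays r for 1700123O20Rik lay between -0.20 (Samd4) and 0.32 (Ogfod3), and for Samd4 between -0.20 (1700123O20Rik) and 0.32 (Psmb5). Over the 42 diet arrays the members' own r was -0.05, and Ogfod3 had the highest value with 1700123O20Rik (0.42). In the diet experiment, where all 42 arrays detected each of the 6 probes other than the pair, Csb minus WT over the 4 diets was called for Ogfod3 (log2 difference -0.19, SE 0.06, limma adjusted p = 0.0174) and Psmb5 (0.15, SE 0.05, adjusted p = 0.0233). It was not called for Ang (0.02, SE 0.07), Tmem260 (-0.06, SE 0.05), Apex1 (0.03, SE 0.06) or Parp2 (0.04, SE 0.06). That comparison called 36.6% of all probes kept there.

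Because both genes lie on chromosome 14, all 447 kept probes of that chromosome (3.20% of those kept) were laid out in RefSeq gene order. This step was chosen after the values were seen. The comparison set old WT saline mice against the 13 other WT injection arrays. Of all kept probes 41 (0.294%) did not overlap between these groups. The stretch from Samd4 to 1700123O20Rik holds 58 kept probes of 41 genes, and 13 of them were lower and 1 higher without overlap in old WT saline mice, the pair among the 13. Its ends are the members, chosen for low values on these same arrays, so this count is a description. Counted from Ncoa4 to 1700123O20Rik instead, 15 of 89 probes were lower and 3 higher. On chromosome 14 before Samd4 2 of 150 were lower and 2 higher, and after 1700123O20Rik 1 of 239 was lower. On all other chromosomes 9 of 12694 were lower and 11 higher. The median difference was -0.12 (log2) in the stretch and 0.00 on the other chromosomes.

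Within the stretch Samd4 differed from the other WT arrays by -2.70. The measured difference of 1700123O20Rik was -3.51, and -2.26 when undetected values are raised to the lowest detected level, which bounds it. Ang, measured at -1.73 and bounded at -0.93 by that rule, stood at 5.02 ± 0.26 (SD, n = 3) in old WT saline mice, none of which detected it, and 6.76 ± 0.38 (SD, n = 13) in the other WT mice. Psmb5 differed by -1.36, Parp2 by -1.32, Tmem260 by -1.13 and Apex1 by -0.96. The second probes of Parp2 (0.30) and Apex1 (0.25) went the other way, with overlapping arrays, and that of Tmem260 differed by -0.51. Not all neighbours went down. Rnase4, a ribonuclease gene that shares its locus with Ang, stood at 9.83 ± 0.51 in old WT saline mice and 8.73 ± 0.40 in the other WT mice at 1 probe, with overlapping arrays, and differed by -0.13 at its other probe. Fbxo34, which encodes an F-box protein, differed by -0.41 and -0.48 at 2 probes and by 0.43 at the third, each without overlap. Probes of 1 gene thus went opposite ways in old WT saline mice at Fbxo34, Parp2 and Apex1, as they disagreed in size at 1700123O20Rik.

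The probes called for NR minus saline in old WT mice also lay mostly on chromosome 14. In that comparison 10 of 13948 probes (0.0717%) were called at a limma adjusted p under 0.05, 9 of them on chromosome 14, a count that includes both members. Apart from the members these were probes of Ncoa4, Tmem260, Parp2, Apex1, Ang, Abhd4 and Psmb5. Old WT saline mice are what chose the members, so nothing is read from the members' calls. The other calls rest on the same 3 arrays and are given as a description only. Csb minus WT in old saline mice called 32 probes (0.229%), 12 on chromosome 14, and old minus young in WT saline mice called 181 (1.30%), 21 on chromosome 14. These 3 comparisons share the 3 old WT saline arrays.

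At probes of several genes near Ercc6, but not at all of them, the arrays labelled old WT saline stood with Csb mice. Ncoa4, whose protein carries ferritin to lysosomes, precedes Ercc6 and was lower in Csb mice in the diet experiment (log2 difference -1.45, SE 0.07, limma adjusted p = 9.73e-20). It stood at 7.57 ± 0.19 (SD, n = 3) in old WT saline mice, against 9.42 ± 0.42 (SD, n = 13) in other WT mice and 7.42 ± 0.49 (SD, n = 13) in Csb mice. Mapk8, a stress-activated kinase gene past Ercc6, stood at 11.63 ± 0.19 in old WT saline mice, against 11.08 ± 0.18 in other WT mice and 11.50 ± 0.14 in Csb mice. A probe of Sncg, which encodes a synuclein, stood at 5.24 ± 0.68 in old WT saline mice, against 7.13 ± 1.10 in other WT mice, with overlapping arrays, and 5.50 ± 0.40 in Csb mice. Arhgap22, past Ercc6, differed from other WT mice by 1.43 in old WT saline mice, without overlap, and by 1.37 in Csb mice. Gdf10 differed by -0.77 and -0.88 in that order, and a probe of Glud1 by -0.68 and -0.73, both with overlapping arrays in old WT saline mice. All these probes were thus nearer the Csb than the WT level in old WT saline mice. Other probes near Ercc6 were not. The second Sncg probe differed from other WT mice by 0.15 in old WT saline mice and by 0.70 in Csb mice. The second Glud1 probe differed by -0.04 and -0.22 in that order. A probe of Chat, which lies between Ncoa4 and Ercc6, differed by 0.27 and 1.06 in that order. The probe of Slc18a3, next to Chat in gene order, differed by -0.21 and 0.46. Tmem254a, which lies farther off, before Ncoa4, and was also lower in Csb mice in the diet experiment (-1.65, SE 0.08, adjusted p = 1.49e-18), stood at 9.14 ± 0.38 in old WT saline mice, 9.42 ± 0.46 in other WT mice and 7.67 ± 0.25 in Csb mice. At Tmem254a old WT saline mice were thus at the WT level. These probes were chosen after their values were seen, and what sets their levels was not tested. 1700123O20Rik and Samd4 differ from Ncoa4 in that all 13 Csb arrays were high at both, at 7.69 to 8.40 and 8.72 to 9.75.

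**Figure D3:**
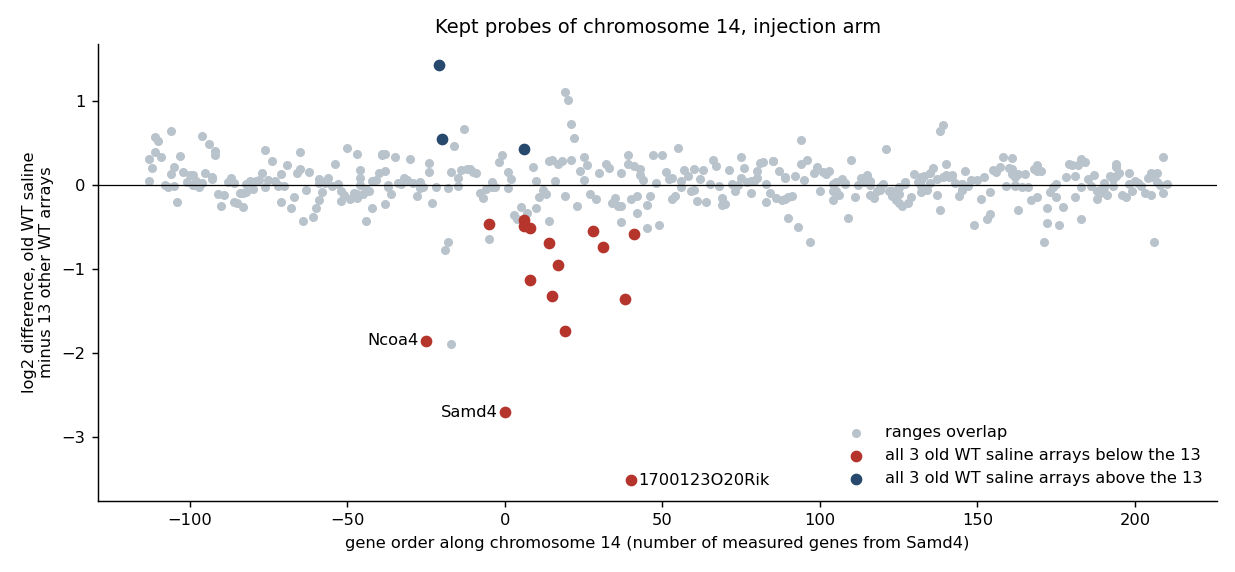
Each point is a kept probe of chromosome 14, placed by RefSeq gene order (number of measured genes from Samd4, x axis), with its log2 difference between the 3 old WT saline arrays and the 13 other WT injection arrays on the y axis. Coloured points do not overlap between these groups; Samd4 (-2.70) and 1700123O20Rik (-3.51, measured, not detected in old WT saline mice) are the lowest points, and most of the separated points lie between Ncoa4 and 1700123O20Rik.

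Summed levels of all 10 marker lists overlapped between the 3 old WT saline arrays and the other 26. Such overlap is the usual outcome, since of 13948 kept probes only 16 stood lower and 3 higher without overlap. Bright genes also lead the sums, so the overlap does not show that cell content was alike. The choroid plexus list (Ttr, Kl and Folr1, 3 of 3 on the array) varied most, with sums of 222 to 28142 in old WT saline mice and 162 to 30645 on the others. Ttr, which carries thyroid hormone in cerebrospinal fluid, was at 14.56, 14.73 and 7.18 on the 3 old WT saline arrays. It was also low on 1 young WT saline array, at 6.39, where 1700123O20Rik stood at 8.74 and Samd4 at 9.61. The pair was low on the 2 old WT saline arrays with high Ttr as well as on the third. Whether choroid plexus content bears on the pair was not tested. Fewer cells of a type and less RNA per cell cannot be told apart in such tissue RNA.

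In the diet experiment 1700123O20Rik was present in all mice and did not part the groups. All 42 arrays detected it, at intensities of 255.1 to 841.7 with a median of 511.15. In log2 the 25 Csb arrays lay between 8.40 and 9.17 with a median of 8.81, and the 17 WT arrays between 8.34 and 9.18 with a median of 8.84, so the genotypes overlapped almost fully. Group means ran from 8.89 ± 0.20 (WT SD, n = 4) to 8.69 ± 0.24 (Csb SD, n = 6), and no step between neighbours in that order exceeded the SD of either. Averaged over the 4 diets Csb minus WT was -0.04 (SE 0.07, 95% interval -0.19 to 0.12, limma adjusted p = 0.738). In the 10 comparisons of single diets the log2 difference lay between -0.20 (SE 0.15, Csb minus WT on SD) and 0.18 (SE 0.13, HFD minus SD in Csb), none called. The shares of all probes called in these comparisons stand with those of Samd4 below. The largest diet by genotype interaction, for HFD, was 0.35 (SE 0.21, adjusted p = 0.424). All 17 WT diet arrays, of mice 1 year old, had ILMN_2597332 above background, unlike the old WT saline arrays.

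Samd4 was higher in Csb than in WT mice when the 4 diets were averaged, by 1.48-fold (log2 difference 0.57, SE 0.13, 95% interval 0.30 to 0.84, limma adjusted p = 0.00113). The 25 Csb arrays lay between 8.12 and 9.84 with a median of 9.45, and the 17 WT arrays between 7.49 and 9.38 with a median of 9.05. The groups overlapped, but all 4 Csb group means (9.31 to 9.59) were above all 4 WT group means (8.78 to 9.0). Of the 14883 kept probes 16.7% were called as higher in Csb, so a call here is common. On single diets the difference was 0.62 (SE 0.27, adjusted p = 0.125) on SD, 0.60 (SE 0.27, adjusted p = 0.163) on HFD, 0.54 (SE 0.27, adjusted p = 0.409) under CR and 0.52 (SE 0.26, adjusted p = 0.151) on Resv, none called. The share of all probes called was 13.8% on SD, 8.63% on HFD, 0.296% under CR and 18.4% on Resv. Background also differed, with group means of 72.3 to 83.2 in Csb and 62.4 to 71.6 in WT. With background as a covariate the difference grew to 1.08 (SE 0.33) and lost its call (adjusted p = 0.0568), and the number of called probes dropped to 555. The part of background in the Samd4 difference cannot be told apart from genotype here.

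No diet moved Samd4 past the threshold. Against SD the log2 difference in Csb mice was 0.08 (SE 0.24) on HFD, -0.05 (SE 0.24) under CR and -0.21 (SE 0.24) on Resv. In WT mice it was 0.10 (SE 0.30) on HFD, 0.03 (SE 0.30) under CR and -0.11 (SE 0.28) on Resv. The limma adjusted p-values were between 0.60 and 0.979. Of all probes 17.1% (HFD), 0.0873% (CR) and 13.5% (Resv) were called in Csb mice, and 0.0806% (HFD), 2.18% (CR) and 0% (Resv) in WT mice. The 95% intervals together reach from -0.70 (Resv in Csb) to 0.71 (HFD in WT), so differences inside each interval remain compatible with these arrays. The interactions with diet lay between -0.10 (SE 0.38, Resv) and -0.02 (SE 0.38, HFD), none called, with 0.00672% of all probes called for Resv, 0.504% for HFD and 0.867% for CR. In the order of means from Csb HFD (9.59 ± 0.21, n = 7) to WT Resv (8.78 ± 0.73, n = 5) no step between neighbours exceeded the larger SD of the 2.

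**Figure D4:**
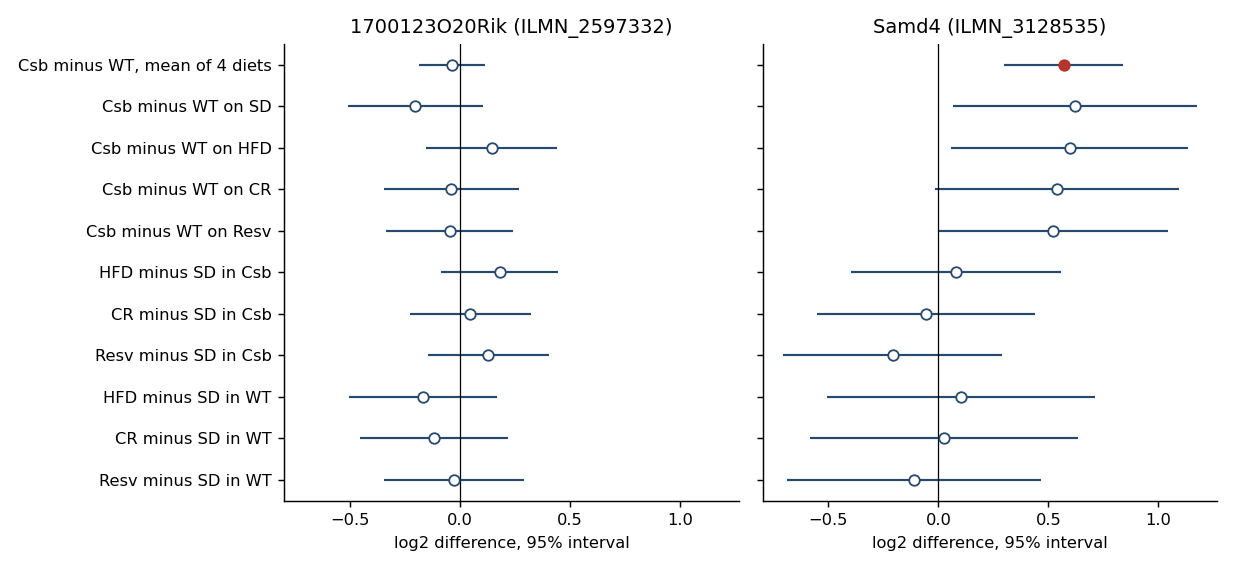
Log2 differences of both probes in the 11 comparisons of the diet experiment, with 95% intervals from limma. The filled point is past the threshold (adjusted p under 0.05): Samd4 in Csb minus WT over the 4 diets, at 0.57; the intervals of 1700123O20Rik all span 0.

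The spread of Samd4 in the diet experiment came largely from 3 arrays. WT Resv replicate 1 stood at 7.49, WT SD replicate 1 at 7.77 and Csb Resv replicate 1 at 8.12, while the other 39 arrays lay between 8.67 and 9.84. The pooled SD within groups was 0.44, larger than for 90.7% of the 2236 probes of similar level, whose median was 0.23. That of 1700123O20Rik was 0.24, near the median of its own neighbours in level (0.24). On the 3 arrays 1700123O20Rik stood at 8.98, 8.74 and 8.87, inside its range elsewhere, so the pair did not go down together there. Without the 3 arrays the difference between Csb and WT over the 4 diets was 0.46 (log2), a value given with no test because the arrays left out were those lowest in Samd4. Without Csb Resv replicate 1 alone the difference on Resv was 0.76. That value too is given with no test, because the array left out was the Csb array lowest in Samd4. Leaving out other single arrays of the Resv groups gave values down to 0.20.

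The 3 arrays were low at many other probes too. Of 14883 kept probes 247 were lower on all 3 than on the other 39 and 9 were higher, 1.72% in all. Samd4 was 70th by size of that distance (0.55). The probes most like Samd4 over the 42 diet arrays, sought after the values were seen, were Rsrc1 (r = 0.93), which encodes a splicing-related protein, Pcyt1a (0.93), the rate-limiting enzyme of phosphatidylcholine synthesis, Polr1a (0.93), the large subunit of RNA polymerase I, Bach1 (0.92), a repressor of antioxidant genes, and Dhdh (0.91), a dihydrodiol dehydrogenase. They lie on chromosomes 3, 16, 6, 16 and 7, none on 14. Over the 39 other arrays r was still 0.76 to 0.81. In the injection experiment r with Samd4 was 0.29 to 0.68. WT SD replicate 1 also had the lowest median correlation within its group of all 42 diet arrays (0.949). Summed levels of all 10 marker lists overlapped between the 3 arrays and the other 39, which is the usual outcome at a share of 1.72%. The part of array quality in these low values was not tested.

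**Figure D5:**
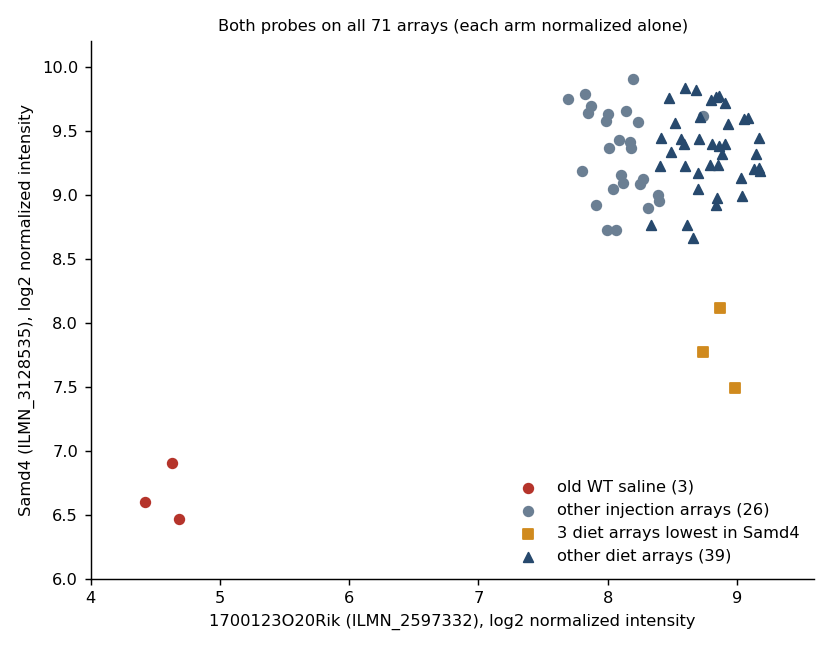
Samd4 (y axis) against 1700123O20Rik (x axis), log2 normalized intensity, on all 71 arrays, each experiment normalized alone. The 3 old WT saline arrays are low in both, and the 3 low diet arrays (7.49 to 8.12 in Samd4) are low in Samd4 alone.

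Across the 42 diet arrays the 2 probes did not vary together. Deviations from the group means gave Pearson's r = -0.001 (permutation p = 0.994) and Spearman's rank correlation = 0.02 (permutation p = 0.909), two-sided, with 100000 permutations. Without the 2 arrays farthest from the median of 1700123O20Rik r was 0.06 (permutation p = 0.695, n = 40). This was the only relation tested between the pair, so its p-values were not adjusted. Of the 16 groups, old WT saline mice were the one whose arrays all lay below the rest of their experiment in both probes. Within the injection experiment that follows from how the members were chosen.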

How the data were processed

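Cerebellum RNA of 71 samples was read on Illumina bead arrays. The deposited table gives for each probe an intensity, not normalized per the file headers, and a detection p-value. The submitters' processing notes name GenomeStudio 1.9.0, and what else the authors did is not given in the sources used here. The deposited value table was also read as a score: it equals the z-score of log2 intensities per array (largest difference 5e-10 over 71 arrays), centred on the mean, with column medians of -0.49 to -0.38.

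Each experiment was normalized alone with limma 3.58.1 in R 4.3.3 (neqc: background from detection p-values, quantile normalization, offset 16, log2). Probes detected (p under 0.01) on at least 4 diet or 3 injection arrays were kept, 14883 and 13948, both members included. All 8 groups of an experiment entered 1 model (lmFit, eBayes), with Benjamini-Hochberg adjustment over all kept probes, two-sided. The fit was tested on simulated data. The number of arrays limits the precision.

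The members and lists were chosen with earlier results of these data known. Named besides the members were the 5 probes most like each over the injection arrays, those undetected in old WT saline mice and detected on the other 26 arrays, the 5 with the largest distance between those sets of arrays, and the next probe after the pair in that order; others were chosen after their values were seen, as said there. Genes come from the platform's annotation, with current symbols by gene ID: 23978 probes have 1 gene symbol, 0 several and 1719 none. RefSeq (GRCm38.p6) gave gene order and start regions; no coordinate of a probe was used. Alternatives were other background corrections and scalings, no filter, joint normalization, array weights, fits of the 2 compared groups by themselves, a block for the replicate number, the value table and leaving out each array. Background, brightness and 3 low arrays were added after seeing the data.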

Additional observations from a re-analysis of the deposited data

Results flagged for a closer look

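In groups of 4 to 10 arrays, 5 of 24 checked (2 probes) had 1 array whose gap to its nearest neighbour was large against the group's range; chance alone gives about 1 in 20. For Samd4 these were low arrays: Csb Resv replicate 1 at 8.12 (next 9.23), WT Resv replicate 1 at 7.49 (next 8.97) and WT SD replicate 1 at 7.77 (next 9.19). For 1700123O20Rik they were high arrays: Csb SD replicate 6 at 9.14 (next 8.71) and WT CR replicate 2 at 9.13 (next 8.70). All 5 lie in the diet experiment.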

How the results depend on the processing

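Of 331 values under other settings 275 counted as unchanged. For differences and correlations that meant the same sign and side of the threshold. For injection levels it meant a move smaller than the SD of old WT saline mice, and for counts of probes a similar number. Of the rest 43 turned their sign and 5 were injection levels that moved by more. In old WT saline mice both probes stayed below the other 26 arrays by a large margin: 1700123O20Rik, -3.52 (log2, measured against values at background), differed by -2.39 without background correction, -2.39 in the value table and -3.74 with all arrays normalized together, and Samd4, -2.66, by -2.19 without background correction and -2.18 in the value table. Leaving out 1 injection array gave -3.57 to -3.44 and -2.79 to -2.57.

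Samd4 in Csb minus WT over the 4 diets kept its call except with background as a covariate (1.08). Leaving out 1 array gave 0.48 to 0.63. On HFD it gained a call in the value table (0.65, adjusted p = 0.0437), with the 2 groups by themselves (0.60, adjusted p = 0.013) and without the 3 lowest arrays (0.60), where CR (0.54) and Resv (0.44) also passed; those 3 arrays were picked for low Samd4, which narrows its spread, so these calls support nothing. On Resv leaving out 1 array gave 0.20 to 0.76. The number of probes called over the 4 diets was 5443, against 9864 with no filter and 555 with the background covariate, and 4742 to 5857 without 1 array.

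All values that turned their sign were of differences not called under any of these settings, and their cause was not tested. For 1700123O20Rik, Csb minus WT was 0.024 over the 4 diets, 0.034 under CR and 0.019 on Resv with z-scores, 0.030, 0.0063 and 0.051 in the value table, and 0.030 on Resv with the brightness covariate. Against SD in WT it was 0.070 on HFD, 0.12 under CR and 0.097 on Resv with the brightness covariate and 0.026 on Resv with the background covariate, and the CR interaction was -0.0745 with brightness. For Samd4, HFD minus SD in WT was -0.039 with z-scores, -0.082 in the value table, -0.13 with array weights, -0.27 without the 3 arrays, -0.24 with background and -0.55 with brightness. CR minus SD in WT was -0.064, -0.053, -0.23, -0.35, -0.24 and -0.63 under the same 6 settings. HFD minus SD in Csb was -0.12 with background and -0.14 with brightness, and Resv minus SD in Csb was 0.029 without the 3 arrays. The HFD interaction was 0.0002 without background correction, 0.082 with z-scores, 0.11 in the value table, 0.16 with array weights, 0.35 without the 3 arrays, 0.12 with background and 0.41 with brightness. The CR interaction was 0.14 with array weights, 0.29 without the 3 arrays, 0.15 with background and 0.58 with brightness. The Resv interaction was 0.0019 in the value table, 0.087 with array weights and 0.19 without the 3 arrays. The correlation of the pair was 0.020 without the 3 arrays.

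Leaving out 1 array gave, for 1700123O20Rik, -0.13 to 0.080 (Csb minus WT under CR), -0.11 to 0.039 (Csb minus WT on Resv), -0.039 to 0.14 (CR minus SD in Csb) and -0.079 to 0.068 (Resv minus SD in WT). For Samd4 it gave -0.30 to 0.029 (Resv minus SD in Csb), -0.27 to 0.27 (HFD minus SD in WT), -0.35 to 0.19 (CR minus SD in WT), -0.48 to 0.21 (Resv minus SD in WT), and for the interactions -0.19 to 0.35 (HFD), -0.24 to 0.29 (CR) and -0.42 to 0.28 (Resv).

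Replicate numbers gave no consistent pairing: deviations of 17 same-numbered pairs correlated at -0.34 to 0.57, 7 of them above 0.1. The pairs of number 1 gave 0.57 on Resv and 0.40 on SD, but -0.10 on HFD and -0.34 under CR. The 3 diet arrays low in Samd4 all carry number 1 in their titles, but their deposited column names do not share a number. Whether these correlations exceed those of other pairs was not tested. Numbers in the deposited column names, which differ from the titles' for WT diet arrays, gave 17 pairs at -0.37 to 0.35, 3 of them above 0.1 (checked after seeing the data). With the replicate number as a block Samd4 in Csb minus WT over the 4 diets was 0.54 (SE 0.13, adjusted p = 0.00263), its HFD interaction 0.023 and 5531 probes were called. Normalizing the experiments apart means that levels of one are not comparable with the other, and probes at background give bounds only.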
